A study of Mus musculus with 2 samples.

Results

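Cajal-Retzius cells are among the first neurons of the cortex. They lie in the marginal zone just under the pia and secrete Reelin, the product of *Reln*, which binds to receptors on migrating neurons and helps to set the order of the cortical layers. They are known to come from several sources at the edge of the cortex, such as the cortical hem and the septum, and to spread over the cortical surface before most of them die after birth. Inhibitory interneurons of the marginal zone can also make *Reln*, so that *Reln* by itself does not mark Cajal-Retzius cells.

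The cells described here, called Reln cells, were selected from single-molecule imaging (MERFISH) of mouse brain sections for high *Reln* and for the absence of inhibitory transcripts. A segmented cell was taken when it held at least 20 transcripts of the 500 panel genes, at least 3 *Reln* transcripts that made up at least 3% of its transcripts, and 0 transcripts of *Gad1*, *Gad2* and *Lhx6*. *Gad1* and *Gad2* encode the enzymes of GABA synthesis, and *Lhx6* encodes a transcription factor of interneurons from the medial ganglionic eminence. The rule found 433 cells among 156481 cells that reached the minimum, 158 in the control and 275 in the *Dnmt1* KO section.

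The study imaged 1 coronal section, 10 µm thick, of a fresh-frozen head per genotype at E16.5. The control embryo carried *Sst-Cre* and the *tdTomato* reporter. The *Dnmt1* KO embryo carried both as well, together with loxP-flanked *Dnmt1* (*Sst-Cre/tdTomato/Dnmt1 loxP2*). *Dnmt1* encodes a DNA methyltransferase whose deletion is directed to cells that express *Sst*, since Cre is driven from the locus of that neuropeptide gene. *Dnmt1* is not on the panel, so the genotype could not be checked in the counts. Run and genotype cannot be told apart, and no test between the sections was possible. Intervals given with a value reflect counting error alone and hold nothing on how embryos or runs vary.

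The sections differed in depth. Cells held a median of 20 transcripts in control and 101 in KO tissue, and 50.9% and 92.0% of the segmented cells reached the minimum of 20. Blank barcodes, which code for no gene, took 0.496% and 0.486% of the transcripts. The sections shared 0 cell identifiers.

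In the control section the Reln cells held 23 to 292 transcripts, with a median of 80. In the KO section they held 27 to 680, with a median of 160. The *Reln* count, on which the cells were selected, ran from 3 to 19 with a median of 5 in the control and from 3 to 52 with a median of 11 in the KO section. As a share of the transcripts of a cell, *Reln* had a median of 6.34% in control and 6.45% in KO tissue. The segmented volume had a median of 1407 µm³ in control and 948 µm³ in KO tissue, beside 1235 and 874 µm³ in all other cells.

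Reln cells made up 0.286% (95% interval 0.243 to 0.334%) of the control cells over the minimum and 0.272% (0.240 to 0.306%) of those of the KO section. The log2 ratio of these shares, KO over control, was -0.07 (-0.47 to 0.33). In the pallial region, where genes of cortical neurons outweighed those of the subpallium, the shares were 0.964% (132 of 13696 cells) and 0.946% (218 of 23056 cells), a log2 ratio of -0.03 (-0.47 to 0.42). These ratios moved with the thresholds. With a minimum of 50 transcripts the pallial ratio was -1.60, and with at least 5 *Reln* counts it was 0.69. Per area of the region it was 1.02, from 42.9 and 87.3 cells per mm². The cause of these shifts was not tested, and depth and genotype cannot be told apart.

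The cut on inhibitory transcripts moved with depth too. Of the cells with high *Reln*, 62.5% (158 of 253) lacked all of *Gad1*, *Gad2* and *Lhx6* in control and 41.5% (275 of 662) in KO tissue. When the KO transcripts were thinned at random to the control depth, 209 of 301 such cells (69.4%) passed. Of these 209 cells, 111 had been Reln cells at full depth, and 76 had held high *Reln* and at least 1 inhibitory transcript. The rest did not reach the *Reln* terms at full depth, and their inhibitory transcripts were not counted.

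Cells also stood close to the thresholds. Cells with exactly 3 *Reln* counts numbered 46 in control and 12 in KO tissue, and 102 and 28 cells missed the rule by holding 2. Among cells with high *Reln*, 40 control and 110 KO cells held exactly 1 inhibitory transcript. Their *Ndnf* level, in transcripts per 10000 panel transcripts without the 4 genes of the rule, was 158 in control and 200 in KO tissue, beside 179 and 198 in Reln cells. In cells with 3 or more inhibitory transcripts (28 and 200 cells) *Ndnf* stood at 81.3 and 151, and *Dlx1*, a transcription factor gene of inhibitory neurons, at 30.5 and 34.4, beside 3.64 and 3.70 in Reln cells.

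The Reln cells lined the surface of the brain. Position was not used by the rule. The surface was drawn from genes of the meninges, and 107 of the 132 pallial Reln cells of the control section (81.1%, 95% interval 73.3 to 87.4%) and 195 of the 218 of the KO section (89.4%, 84.6 to 93.2%) lay within 50 µm of it. Of all other pallial cells 16.48% and 18.2% lay as close. The position was shared by the cells with high *Reln* and an inhibitory transcript, of which 66.7% (34 of 51, 52.1 to 79.2%) in control and 86.5% (231 of 267, 81.8 to 90.4%) in KO tissue lay within 50 µm. The control value moved with where the surface is drawn. With meningeal genes at 6% of the transcripts instead of 4%, 51.5% (68 of 132) of the control and 82.0% of the KO Reln cells lay within 50 µm, and with 3% it was 89.4% and 90.8%. The median distance was 30 µm for the control and 14.1 µm for the KO cells, on a grid of 10 µm, and 10.7% and 7.51% of the other pallial cells lay nearer to the surface than that.

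**Figure D1:**
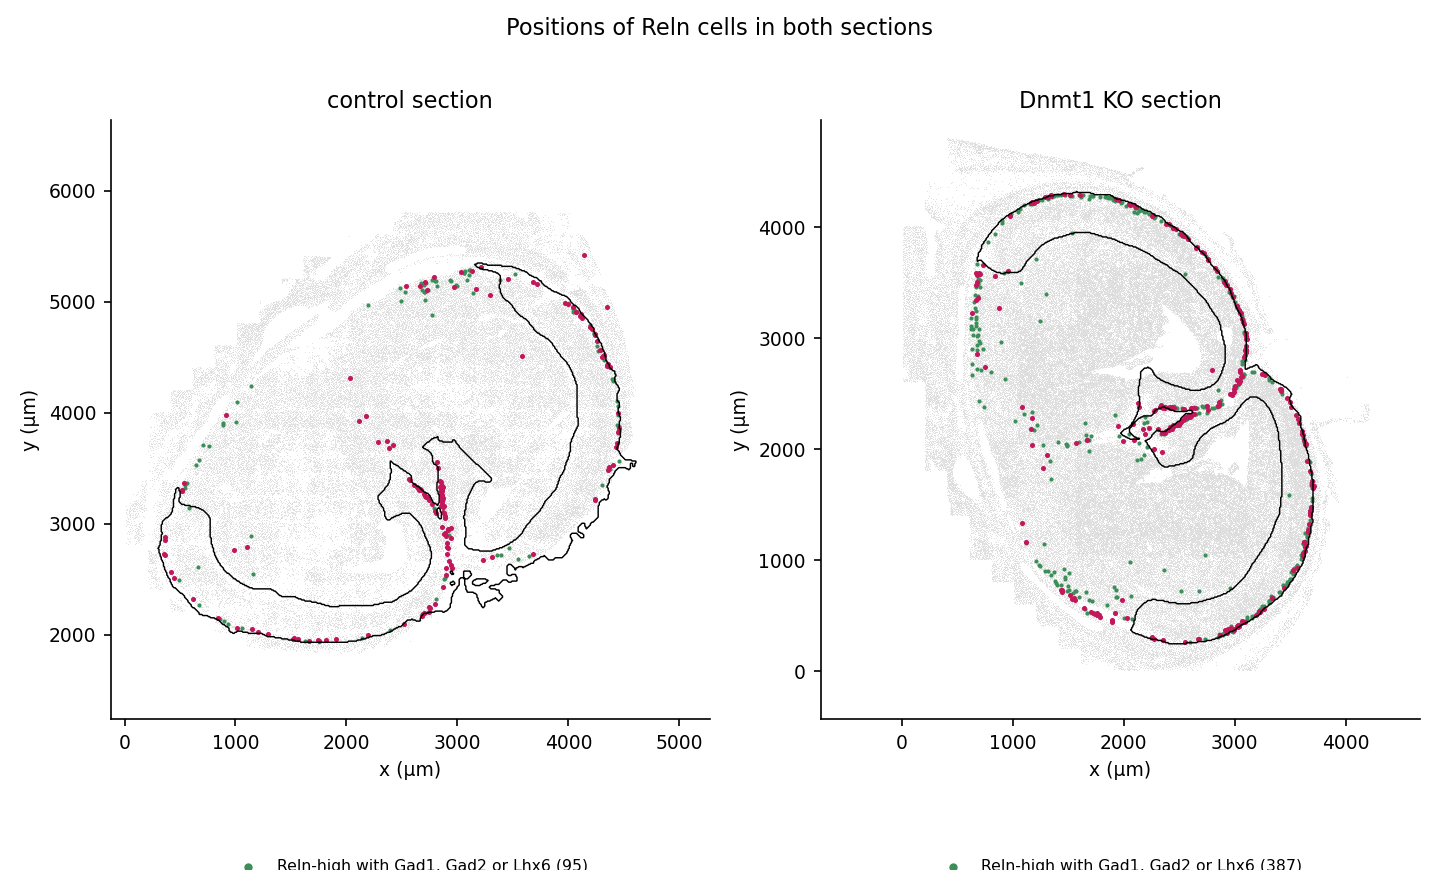
Positions (x and y in µm) of cells with at least 20 transcripts (grey), of Reln cells (red) and of cells with high Reln and at least 1 Gad1, Gad2 or Lhx6 transcript (green) in the control and the Dnmt1 KO section. The black line is the pallial region, and most of the 158 and 275 Reln cells form a thin line along its outer edge and in the fissure between the hemispheres.

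Bands of distance were taken without their upper end, so that cells at exactly 50 µm fall between 50 and 100 µm. Across these bands, Reln cells were most frequent in the outer 50 µm. In the control section they were 3.495% of the cells in the outer 25 µm, 7.02% of those between 25 and 50 µm, 0.912% between 50 and 100 µm and 0.0844% beyond 200 µm. In the KO section they were 6.27%, 2.57%, 0.115% and 0.138% of the cells of the same bands. The peak thus lay in the second band in the control and in the first in the KO section. Relative depth ran from 0 at the drawn surface, or at the mirror line between the hemispheres, to 1 at the inner edge. Cells beside that line could thus score as outer cells. By this scale, 28.0% (37 of 132) of the control and 68.3% (149 of 218) of the KO pallial Reln cells lay at a depth under 0.1. For the cells with high *Reln* and an inhibitory transcript this was 29.4% and 73.8%. The upper medial edge of the control region was ragged, so that depth is uncertain there, and 34 of the 132 control cells lay within 200 µm of the midline. The shares moved with where the edge is drawn, while the KO share was the higher one at each of the 3 settings tried. With meningeal genes at 3% of the transcripts instead of 4%, this zone held 53.0% and 83.5%, and with 6% it held 1.52% and 30.4%. The hemispheres of the KO section differed by themselves, with 55.2% (80 of 145) and 94.5% (69 of 73).

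**Figure D2:**
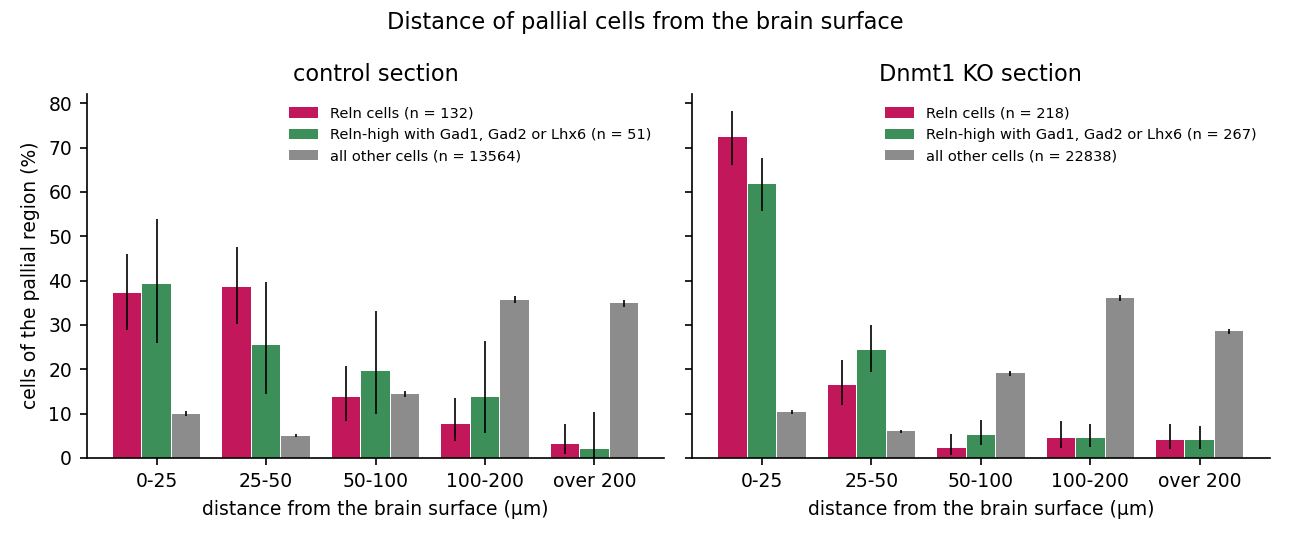
Share of pallial cells (%, y axis) by distance from the brain surface (µm, x axis) in both sections, for Reln cells (red), cells with high Reln and an inhibitory transcript (green) and all other cells (grey, the green cells included). Bars are shares with exact binomial 95% intervals. Of the Reln cells, 81.1% in control and 89.4% in KO tissue lay within 50 µm of the surface, beside 16.48% and 18.2% of the other cells. These shares include cells at exactly 50 µm, which the bars place in the next band.

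Reln cells were also frequent along the fissure between the hemispheres. Of the pallial Reln cells, 25.8% (34 of 132, 95% interval 18.5 to 34.1%) in control and 27.1% (59 of 218, 21.3 to 33.5%) in KO tissue lay within 200 µm of the mirror line between the hemispheres. For the cells with high *Reln* and an inhibitory transcript this was 4 of 51 (7.84%, 2.18 to 18.9%) and 33 of 267 (12.4%, 8.66 to 16.9%), and for all other pallial cells 10.96% and 11.8%. In the outer 50 µm of the pallium the density was 141 Reln cells per mm² (115 to 170) in control. It was 299 (259 to 344) in KO tissue. Other cells that reached the minimum stood at 2942 and 6361 per mm², among them 44.8 and 354 with high *Reln* and an inhibitory transcript. All of these were denser in the KO section, where 92.0% of the segmented cells reached the minimum, beside 50.9% in control. The part of depth in these densities was not tested. The nearest Reln cell lay at a median of 23.1 µm in the control and 15.6 µm in the KO section.

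*Ndnf* was the gene that set Reln cells apart most by fold, and the rule had not used it. *Ndnf*, which encodes a secreted factor of marginal zone neurons, stood at 179 transcripts per 10000 (157 to 203) in Reln cells of the control and 198 (186 to 210) of the KO section. This was 22.7 times (19.1 to 26.996) the level of all other cells in the control and 29.4 times (27.01 to 31.9) in the KO section, the highest fold among the 496 genes outside the rule in each section. At least 1 *Ndnf* transcript was found in 61.4% (97 of 158) and 73.1% (201 of 275) of the cells. Averaged over all ways to thin every cell to 20 transcripts these shares were 26.7% and 27.6%, beside 1.05% and 1.31% of microglia-like cells, which should lack the gene. The median depth was 80 and 160 transcripts in Reln cells and 52 and 159 in microglia-like cells. Other cells in the outer 50 µm of the pallium had *Ndnf* at 26.3 and 29.2 per 10000.

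*Ebf3*, which encodes a transcription factor known from Cajal-Retzius cells, stood at 99.02 (83.1 to 117) in control and 89.8 (81.8 to 98.4) in KO tissue, against 20.5 and 7.67 in other cells. It was found in 44.9% (71 of 158) and 62.5% (172 of 275) of the cells, and in 16.51% and 16.48% after thinning, beside 5.48% and 2.51% of microglia-like cells. *Ndnf* or *Ebf3* was present in 69.6% of the control and 85.1% of the KO Reln cells, and both together in 36.7% and 50.5%. Among all other cells both were present in 0.554% and 0.926%.

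Of the 15 genes listed as Cajal-Retzius markers, 7 were on the panel and 6 of them stood outside the rule. Past 2-fold over other cells, with 0.5 transcripts per 10000 added on each side, were 5 of the 6 in each section: *Ndnf*, *Ebf3*, *Calb2*, *Slc17a6* and *Cxcr4*. Of all 496 genes, 4.64% passed 2-fold upwards in control and 6.85% in KO tissue. *Calb2* encodes the calcium binding protein calretinin. It stood at 15.3 and 26.7 per 10000, against 3.05 and 3.34 in other cells. *Slc17a6* encodes a vesicular glutamate transporter and stood at 37.9 and 54.5, against 11.3 and 15.6. *Cxcr4*, the receptor gene for the meningeal chemokine that is known to hold these cells at the surface, stood at 14.6 and 29.2, against 4.14 and 7.70. The remaining gene, *Tbr1*, which encodes a transcription factor of early cortical glutamatergic neurons, stood at 210 and 237, against 122 and 132 in all other cells but 392 and 437 in other pallial cells. *Tbr1* was among the genes that drew the pallial region, so its level in other pallial cells is in part built in. *Trp73*, *Lhx1*, *Lhx5*, *Ebf2*, *Nhlh2*, *Cacna2d2*, *Barhl2* and *Emx2* were not on the panel, so the label rests on these 6 genes. Neither they nor the position were particular to Reln cells. The cells with high *Reln* and an inhibitory transcript shared the position and had these genes above all other cells. For *Cxcr4* in the control the margin was small, and 3 of 95 such cells held it. The 6 genes summed to 556 and 635 per 10000 in Reln cells, 431 and 516 in those cells and 169 and 174 in all other cells. In those cells *Calb2* stood at 17.6 and 25.2, *Slc17a6* at 24.9 and 35.4, *Cxcr4* at 4.40 and 30.2 and *Tbr1* at 183 and 201.

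*Ccnd2*, which encodes the G1 cyclin D2, was the most abundant panel gene of the Reln cells in both sections. It made up 49.8% of their transcripts in control and 36.7% in KO tissue, against 8.85% and 5.14% in all other cells. Its level was also high in the neighbours of the Reln cells. Other cells in the outer 50 µm of the pallium held *Ccnd2* at 4153 per 10000 in control and 2129 in KO tissue, beside 5749 and 4430 in the Reln cells of that zone. Per cell its share ran from 0 to 91.8% with a median of 48.5% in the control, and from 0 to 78.5% with a median of 30.5% in the KO section. At least 30% was reached by 65.8% (104 of 158) and 50.5% (139 of 275) of the Reln cells and by 6.28% and 2.45% of all other cells. *Ccnd2* was at 0 in 11 and 20 Reln cells. Because 1 gene filled so much of the total, the levels of all others in these cells were lowered, and the median log2 fold over other cells was -1.01 in control and -0.67 in KO tissue. Without *Ccnd2* in the totals it was -0.25 and -0.16, and the fold of *Ndnf* was 44.1 in control and 45.8 in KO tissue.

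The 15 genes with the highest fold in each section shared 11 members: *Ndnf*, *Ccnd2*, *Ebf3*, *Calb2*, *Tmem163*, *Kcnip2*, *Rgs4*, *Nr2f2*, *Ntng2*, *Slc17a6* and *Cxcr4*. *Rgs4*, which encodes a regulator of G protein signalling, stood at 71.4 and 168 per 10000 in Reln cells, against 21.7 and 28.1 in other cells. *Nr2f2*, the gene of the nuclear receptor COUP-TFII, stood at 51.7 and 72.9, against 15.1 and 12.6. *Ntng2* (netrin-G2, a membrane protein of axons) stood at 56.8 and 64.9, against 16.9 and 18.4. *Kcnip2*, which encodes a potassium channel interacting protein, stood at 25.5 and 21.0, against 4.53 and 4.21. *Tmem163*, the gene of a zinc transporter, was rare at 7.28 and 10.1, against 0.945 and 1.14. Only in the control list were *Neu4*, *Unc5b*, *Tcap* and *Wnt7b*, and only in the KO list *Vmn2r1*, *Clstn2*, *Cxcl12* and *Cabp7*. These lists are ranks and no test of a difference between the sections. In all, 18 genes passed 2-fold upwards in both sections, of 23 in control and 34 in KO tissue.

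**Figure D3:**
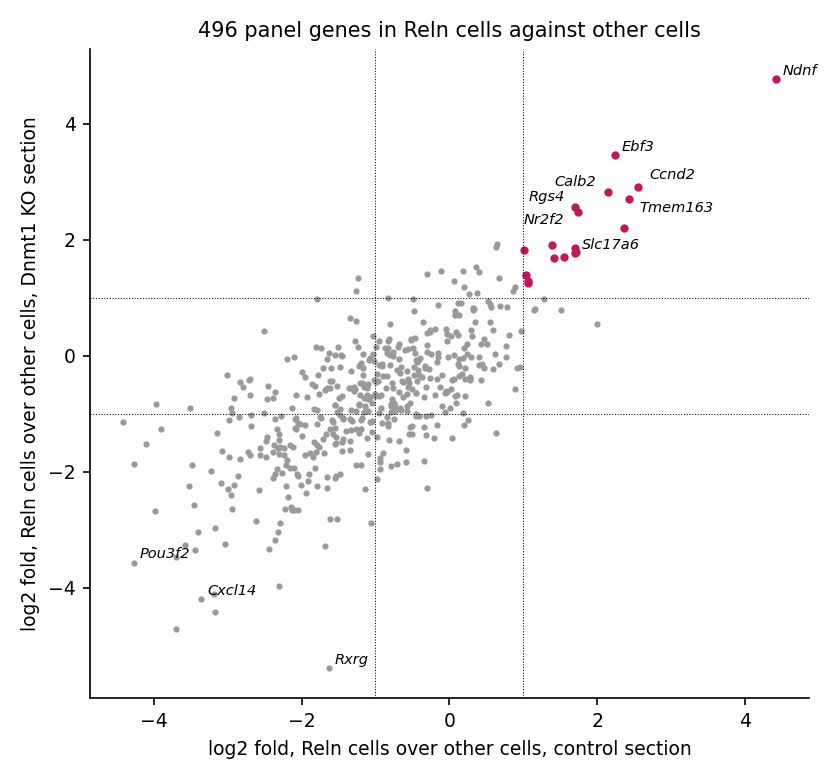
Log2 fold of Reln cells over all other cells for 496 panel genes in the control (x axis) and the Dnmt1 KO section (y axis), with 0.5 transcripts per 10000 added on each side. Red points are the 18 genes past 2-fold (dotted lines) upwards in both sections. Ndnf has the highest fold in each section.

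Downwards, 50% of the 496 genes passed 2-fold in control and 37.5% in KO tissue, so that a count of low genes must be read against these shares. When *Ccnd2* was left out of the totals, 32.1% and 22.2% of 495 genes passed downwards and 15.4% and 14.3% upwards. Of the 6 Cajal-Retzius genes, all 6 then passed upwards in both sections. Genes of other cortical neurons were read beside these shares. Of the 7 upper-layer genes, 6 were lower in each section, and 3 in control and 4 in KO tissue with *Ccnd2* left out. Their summed level was 43.0 per 10000 in control and 60.8 in KO Reln cells, against 292 and 334 in other cells. *Pou3f2*, a transcription factor gene of upper-layer neurons, stood at 4.37 and 9.74 per 10000 in Reln cells, against 93.7 and 121 in other cells. Of the 7 deep-layer genes, 5 and 6 were lower, and 3 and 5 with *Ccnd2* left out, when *Tbr1*, which is also on this list, was higher in each section. Their summed level was 261 and 271, against 299 and 322. *Fezf2*, a transcription factor gene of deep-layer neurons, stood at 26.9 in control and 11.7 in KO tissue, against 53.8 and 53.0.

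Besides the 3 inhibitory genes of the rule, the pan-GABAergic genes *Slc32a1* and *Dlx1* were lower in both sections, with and without *Ccnd2* in the totals. This is in part built in, as are the readings of the interneuron lists that follow. Cells with an inhibitory transcript were left out by the rule and counted among the other cells. *Slc32a1*, the gene of the vesicular GABA transporter, had 2 transcripts over all control and 20 over all KO Reln cells. Of the 7 genes of interneurons from the medial ganglionic eminence, 2 were lower in control and 4 in KO tissue, beside 50% and 37.5% of all genes. With *Ccnd2* left out 2 and 3 were lower, beside 32.1% and 22.2%. On a list of 7 genes these counts are set apart from the shares of all genes by few genes, so no direction was read from them. Of 9 genes of caudal or neurogliaform interneurons, *Nr2f2* was higher and 4 (control) and 3 (KO) were lower. Without *Ccnd2* in the totals, 2 and 4 were higher and 2 and 1 lower, so that this list has no one direction and its lower genes lay near or under the shares of all genes. *Npy* had 4 and 7 transcripts in all, and *Lamp5* 0 and 7. The 0 *Lamp5* transcripts of the control allow a level of up to 2.18 per 10000, above the 0.883 of other cells.

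*Sst*, from whose locus Cre is driven, had 6 transcripts in 5 of the 158 control and 11 transcripts in 10 of the 275 KO Reln cells. Its level was 4.37 (1.60 to 9.51) and 2.14 (1.07 to 3.83) per 10000, against 8.81 and 8.45 in other cells. Among genes that the study names as raised in *Sst* cells upon the deletion, *Dlx1*, *Sox6* and *Erbb4* are given here, from a selection made from its text. In Reln cells their log2 ratios of KO over control were 0.02, 2.27 and -0.09, and the value of *Sox6* rests on 1 control transcript. The selection is no independent evidence. Of the 13 genes of the Reelin pathway, *Reln* alone was on the panel, so its receptors and adaptor could not be read.

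Markers of surrounding cell types were read beside the 50% (control) and 37.5% (KO) of all genes that were lower, and beside 32.1% and 22.2% with *Ccnd2* left out. Of the 7 meningeal genes on the panel, 7 were lower in control and 6 in KO tissue, and 5 and 3 with *Ccnd2* left out. Their summed level was 189 (167 to 214) per 10000 in control and 143 (133 to 154) in KO tissue, against 900 and 641 in other cells, and 0 of the 7 were at 0. Of the control sum of 260 transcripts, 94 were *Igf2* in the 10 surface cells outside the pallium. *Dcn*, a proteoglycan gene of the meninges, stood at 30.6 and 42.3. Of the 8 striatal genes 6 were lower in control and 8 in KO tissue, and 4 and 7 with *Ccnd2* left out. Of the 7 radial glia genes 6 and 4 were lower, and 4 and 2 with *Ccnd2* left out, when 1 was higher in control. Of the 5 genes of oligodendrocyte precursors 4 and 3 were lower, and 2 and 2 with *Ccnd2* left out. For the 4 mural genes this was 3 and 3, then 3 and 1, and for the 4 endothelial genes 1 and 0, then 0 and 0. Of the 2 genes of intermediate progenitors 1 was lower in each section, and 0 and 1 with *Ccnd2* left out. The 3 microglia genes summed to 8.01 and 20.3 per 10000, against 32.5 and 23.0 in other cells.

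The cells most like the Reln cells were those with high *Reln* and an inhibitory transcript, 95 in control and 387 in KO tissue. Their *Ndnf* (129 and 163 per 10000) and *Ebf3* (71.9 and 61.6) levels lay below those of the Reln cells but far above other cells. *Ccnd2* stood at 3935 and 3024 there, and at 5313 and 3924 in Reln cells. As the rule splits them by inhibitory transcripts, other interneuron genes differed too. *Erbb4* stood at 38.2 and 45.1 in these cells against 10.2 and 9.55 in Reln cells, and *Cux2*, a gene of upper-layer neurons and of interneurons, at 76.3 and 83.8 against 13.1 and 20.8. In the control section 53.7% of them lay in the pallial region and in the KO section 69.0%, beside 83.5% and 79.3% of the Reln cells.

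Reln cells were not alike in every place. Those in the outer 50 µm of the pallium (107 control, 195 KO) had *Ndnf* at 201 (174 to 230) and 214 (200 to 229) per 10000 and *Ccnd2* at 5749 and 4430. The deeper pallial cells (25 and 23) had *Ndnf* at 156 (107 to 219) and 175 (140 to 216) and *Ccnd2* at 5899 and 4328. Their *Ebf3* was lower, with 56.8 (29.3 to 99.2) and 59.7 (40.3 to 85.2), against 112 (92.5 to 134) and 88.8 (79.7 to 98.6) at the surface, although the intervals overlapped. Outside the pallium, 10 control and 32 KO cells lay within 50 µm of the brain surface. There *Ndnf* stood at 103 (33.3 to 240) in control and 220 (175 to 273) in KO tissue, both intervals overlapping those of the surface cells of the pallium. *Ebf3* stood at 144 (57.8 to 296) and 178 (138 to 226), the latter above the KO surface cells of the pallium with no overlap. *Ccnd2*, at 1232 and 1245, was lower than in the pallium in both sections. In the surface cells of the pallium it filled 5749 and 4430 per 10000, which lowered their other levels. The contrasts of *Ndnf* and *Ebf3* between these places were not taken without *Ccnd2* in the totals, so the overlaps hold for these totals alone. The 10 control cells also held the meningeal genes *Igf2* at 1930 and *Dcn* at 226, against 78.1 and 26.0 in the control surface cells of the pallium. Of all *Ebf3* molecules of the sections, Reln cells held 2.01% in control and 3.39% in KO tissue. The part of neighbouring tissue in the *Ebf3* levels outside the pallium was not tested.

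In the 16 control and 25 KO cells that lay outside the pallium and deeper than 50 µm, *Ndnf* and *Ccnd2* were low, while other Cajal-Retzius genes were not low throughout. Outside the pallium here includes parts with pallial genes that were too small for the region. How many of these cells lay in such parts was not counted. *Ndnf* had 0 transcripts in the control, which allows up to 39.1 per 10000, and 4 in the KO section (12.0, 3.26 to 30.6). *Ccnd2* stood at 404 in both sections. *Ebf3* had 1 transcript in these control cells and stood at 47.9 (27.4 to 77.7) in the KO cells, where it overlapped the deeper cells of the pallium. In the same KO cells *Calb2* (59.8, 36.6 to 92.4), *Slc17a6* (95.8, 65.5 to 135) and *Tbr1* (347, 287 to 416) lay above the KO surface cells of the pallium (23.7, 49.0 and 218) with no overlap of the intervals. *Ccnd2* filled 4430 per 10000 of those surface cells, beside 404 here, which lowered the other levels of the surface cells. These 3 contrasts were not taken without *Ccnd2* in the totals, so no direction is read from them. In the control cells *Calb2* was at 0, *Slc17a6* stood at 91.1 (36.6 to 188) and *Tbr1* at 117 (53.6 to 222). *Meis2*, a transcription factor gene of the striatum and other subpallial tissue, stood at 312.5 (200.2 to 465) and 117 (83.0 to 160), against 2.89 and 6.63 in the surface cells of the pallium. *Meis2* was among the genes that drew the region, so this contrast is in part built in, whereas *Ndnf*, *Ebf3* and *Ccnd2* were not. For these 41 cells the label of Cajal-Retzius cells thus has little *Ndnf* to rest on.

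**Figure D4:**
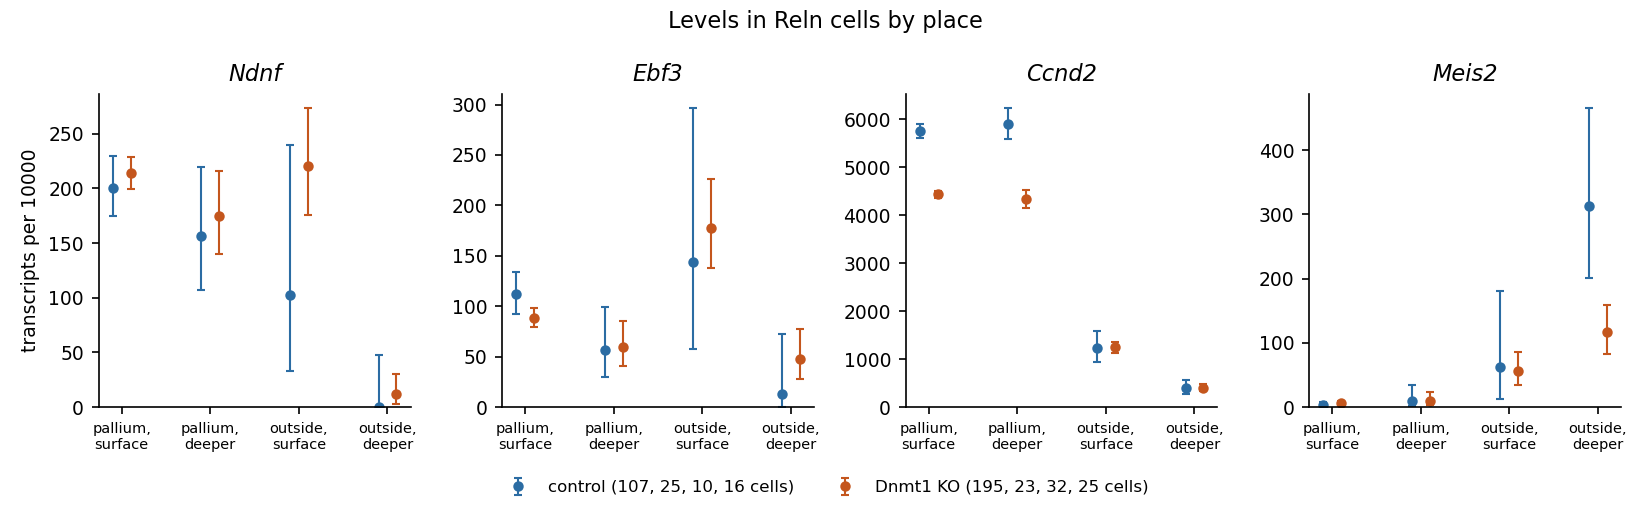
Levels of Ndnf, Ebf3, Ccnd2 and Meis2 (transcripts per 10000 without the genes of the rule, y axes) in Reln cells by place, in the control (blue) and the Dnmt1 KO section (orange). Surface means within 50 µm of the brain surface, and bars are exact Poisson 95% intervals of the summed counts. In cells outside the pallium and deeper, Ndnf and Ccnd2 were lowest and Meis2 was highest.

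Within the pallium the midline and the hemispheres gave further spread. In the control section *Ndnf* stood at 120 (86.3 to 163) within 200 µm of the midline and at 220 (191 to 253) beyond it, and *Ebf3* at 49.9 and 122. In the KO section the same split gave 190 (168 to 214) and 219 (202 to 236) for *Ndnf* and 76.7 and 89.6 for *Ebf3*. Between the hemispheres of the KO section *Ndnf* stood at 179 (165 to 195) and 282 (254 to 312), with no overlap. Between those of the control section it stood at 223 (162 to 299) and 188 (162 to 216). One pair of hemispheres thus differed by more than the sections did.

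Between the sections the level of *Ndnf* in Reln cells had a log2 ratio of KO over control of 0.14 (-0.13 to 0.42) and that of *Ebf3* of -0.14. In other cells *Ebf3* had a ratio of -1.42. *Ccnd2* had a ratio of -0.44 in Reln cells and -0.78 in other cells. Over 251 genes at or above the panel median, 47 (18.7%) passed 2-fold upwards and 14 (5.58%) downwards, around a median log2 ratio of 0.35. Without *Ccnd2* in the totals the median was -0.03, and 27 (10.8%) of 249 genes passed upwards and 26 (10.4%) downwards. With at least 5% *Reln* in the rule, 39 passed upwards and 44 downwards of 248 genes, so that the surplus of higher genes depended on the total and on the *Reln* term. In other cells the same 251 genes had a median of 0.07, with 13 past 2-fold upwards and 7 downwards.

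Part of these ratios stood clear of counting error. Of the 47 and 14 genes, the interval left out no change for 25 and 2. This split was taken with *Ccnd2* in the totals, around a median above 0, and was not counted without it. The interval lay wholly past 2-fold for 4 genes, *Cd24a*, *Epha3*, *Cxcl12* and *Rxrg*, and for all of these but *Cxcl12* with *Ccnd2* left out of the totals. *Cd24a*, which encodes a surface protein of young neurons, had 23 transcripts in control and 491 in KO Reln cells, a log2 ratio of 2.51 (1.80 to 3.30), and its ratio in other cells was 2.15. *Epha3*, an ephrin receptor gene, had 10 and 215 transcripts, a ratio of 2.52 (1.45 to 3.78), beside 1.82 in other cells. Both were thus higher in the KO section across the tissue.

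*Cxcl12*, the gene of the chemokine that binds to the receptor made from *Cxcr4*, was higher in Reln cells of the KO section by more than in other cells. It had 36 transcripts in the control (26.2 per 10000, 18.4 to 36.3) and 438 in the KO section (85.3, 77.5 to 93.7), a log2 ratio of 1.70 (1.10 to 2.35). With *Ccnd2* left out of the totals it was 1.33 (0.72 to 1.98), no longer wholly past 2-fold. The ratio was 0.44 in all other cells and 0.67 in other pallial cells. A higher KO value was not particular to Reln cells. After thinning to 20 transcripts, *Cxcl12* was found in 4.29% of control and 13.6% of KO Reln cells. For cells with high *Reln* and an inhibitory transcript this was 3.10% and 8.28%, and for all other cells 2.34% and 3.24%. In the Reln cells of the outer 50 µm the log2 ratio was 2.34 (1.57 to 3.20), from 20 and 383 transcripts, and 1.95 (1.18 to 2.81) without *Ccnd2*. The intervals of the sections overlapped in the other places. The deeper pallial Reln cells held *Cxcl12* at 61.5 (32.7 to 105) and 75.6 (53.5 to 104) per 10000, and the surface cells outside the pallium at 41.1 (4.97 to 148) and 39.8 (22.3 to 65.7). The deeper cells outside the pallium had 1 *Cxcl12* transcript in control and 2 in KO tissue. The control surface cells thus held 19.3 per 10000 (11.8 to 29.8), where other cells of the same zone held 60.4 (56.3 to 64.7). The KO surface cells held 97.7 (88.2 to 108), beside 114 (111 to 116) in other cells of the zone. The meninges are known to make *Cxcl12*. The KO cells lay nearer to the drawn surface. In the Reln cells of the outer 50 µm the 7 meningeal genes summed to 130.2 per 10000 (109 to 154) in control and 149 (137 to 162) in KO tissue, and *Dcn* stood at 26.0 and 45.4. The part of either in this ratio was not tested.

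*Rxrg*, which encodes a retinoid X receptor of the striatum, had 17 transcripts in control and 4 in KO tissue, a log2 ratio of -3.99 (-6.54 to -1.85). All 17 came from 3 of the 16 deep cells outside the pallium, and 1 cell held 9 of them. In the 132 pallial Reln cells of the control it was at 0. As *Rxrg* was among the genes that drew the region, this contrast of places is in part built in. *Fezf2* had 37 and 60 transcripts, a ratio of -1.20 (-2.06 to -0.33), beside -0.02 in other cells.

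The other genes at the upper end were *Pcdh11x*, *Gabra3*, *Junb*, *Gria4* and *Pcdh7*, each with 1 transcript in control and 26 to 45 in KO tissue, and *Cacng5*, *Iqgap2* and *Cx3cr1* with 3 to 5 and 44 to 76. The intervals of *Gria4*, *Pcdh7* and *Cx3cr1* included no change. Genes with 1 control transcript passed the filter on mean level through their KO level. Of the 44 *Cx3cr1* transcripts, which mark microglia, 12 lay in 1 cell. At the lower end stood *Spp2*, *Prss12*, *Tacr3*, *Fezf1*, *Parm1*, *Adcyap1*, *Crym* and *Cspg4*, with 6 to 17 control and 5 to 29 KO transcripts, and the interval of each included no change.

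**Figure D5:**
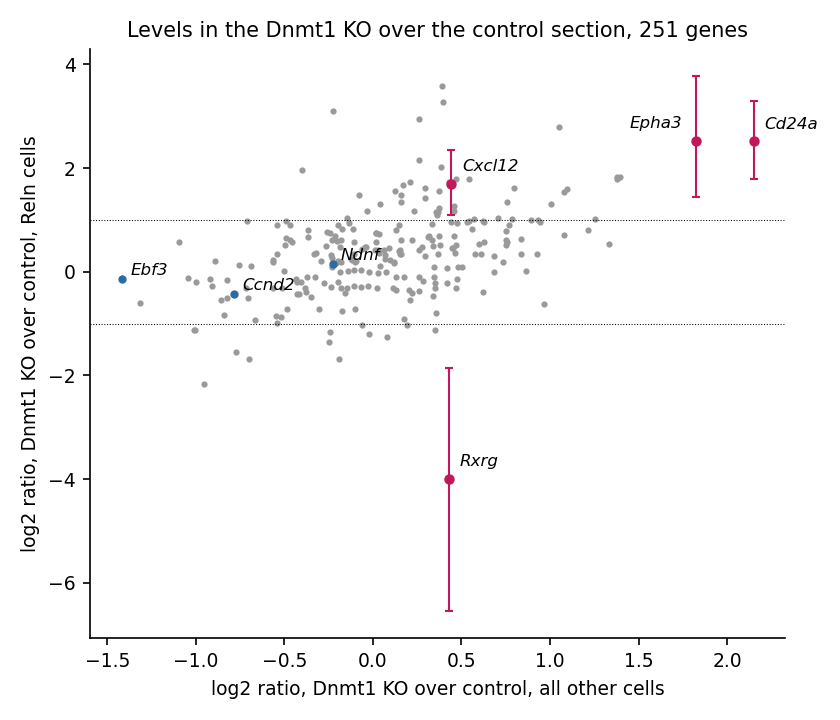
Log2 ratio of the level in the Dnmt1 KO over the control section in all other cells (x axis) and in Reln cells (y axis) for 251 genes. Red points are the 4 genes whose Poisson 95% interval (bars) lies wholly past 2-fold (dotted lines), and blue points are Ndnf, Ebf3 and Ccnd2. Cd24a and Epha3 were also high in other cells, while Cxcl12 (0.44) and Rxrg (0.43) had small ratios there.

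The Reln cells held a minor part of the *Reln* molecules of the sections. As *Reln* counts defined these cells, this part is in some measure set by the rule. Of all *Reln* molecules, 15.1% (906 of 6014) in control and 11.8% (3623 of 30764) in KO tissue lay in Reln cells. Cells with high *Reln* and an inhibitory transcript held 7.43% and 16.3%, all remaining cells 61.0% and 54.6%, and 16.48% and 17.4% lay outside cells. The remaining cells include segmented cells under the minimum of 20 transcripts. In the outer 50 µm of the pallium, Reln cells held 34.9% (658 of 1883) and 26.3% (2871 of 10908) of them. Of the *Ndnf* molecules in that zone they held 30.03% (200 of 666) and 26.0% (843 of 3246). Of the 6 genes of marginal zone signals on the panel, *Ndnf*, *Cxcr4* and *Wnt7b* passed 2-fold upwards in both sections, *Cxcl12* in the KO section, and *Cxcl14* and *Igfbp5* passed downwards in both. *Wnt7b*, the gene of a secreted signal, stood at 85.2 and 152 per 10000 in Reln cells, against 31.8 and 46.8 in all other cells but 102 and 143 in other pallial cells. *Cxcl14*, the gene of another secreted factor, had 2 transcripts in control and 8 in KO Reln cells, a level of 1.46 and 1.56 per 10000 against 19.6 and 37.4 in other cells.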

How the data were processed

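MERFISH (MERSCOPE, a panel of 500 genes and 50 blank barcodes) had been run on 1 section per genotype. The deposited tables give, for each segmented cell, how many molecules of each gene were decoded, as raw counts that the authors obtained with the instrument's decoding and segmentation. The segmentation model is not given in the sources used here. The deposited positions, volumes and single molecules were used as given. Python 3.11.15, numpy 2.4.6, scipy 1.17.1, pandas 2.3.3 and matplotlib 3.10.9 were used.

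The members, gene lists and comparisons were chosen with earlier results of these data known. Counts were summed over cells and scaled to 10000 panel transcripts without *Reln*, *Gad1*, *Gad2* and *Lhx6*, with exact Poisson 95% intervals. Shares have exact binomial (Clopper-Pearson) 95% intervals. For a ratio, the low end of one level was set against the high end of the other. Genes past 2-fold were called, with 0.5 per 10000 added only for folds over other cells. With 1 section per group no test was run. A count of 0 allows 3 counts. The scripts were tested on simulated data. No doublet caller was run, since segmented cells are not droplets. Microglia-like cells held at least 3 counts of *Csf1r*, *Cx3cr1* and *C1qa*. Thinned shares are exact means over all draws of 20 transcripts per cell.

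The pallial region was drawn on bins of 10 µm, smoothed by 50 µm, as those where 5 pallial genes (*Tbr1*, *Fezf2* and *Cux2* among them) exceeded 50% of their sum with 14 subpallial genes (such as *Meis2* and *Rxrg*), in parts of at least 0.5 mm² (3.07 mm² in the control, 2.50 mm² in the KO section). The brain surface was where 6 meningeal genes reached 4% of the transcripts, smoothed by 25 µm. These settings were chosen after looking at the maps. Cells of surface bins within 30 µm of the region counted as pallial, at depth 0. The hemispheres were divided by the line of best mirror overlap.

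Named genes were all genes of the lists, the 15 highest folds per section, and the 10 highest and 10 lowest ratios between the sections. Alternatives changed the minimum, the *Reln* and inhibitory terms, the depth, the largest cells, the outline, the hemispheres, the filter and the total. Results for some listed genes are not reported here.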

Additional observations from a re-analysis of the deposited data

How the results depend on the processing

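No paired analysis was possible because each group has 1 section. The log2 ratio of the share of Reln cells, KO over control, was 0.44 in the whole section and 0.46 in the pallium with a minimum of 10 transcripts, -1.59 and -1.60 with 50, -0.65 and -0.47 with at least 2 *Reln* counts and 0.73 and 0.69 with at least 5. It was 0.78 over all segmented cells. Between hemispheres the pallial ratio ran from -0.53 to 0.63, and per area it was 1.02. These ratios have no stable sign. The share of pallial Reln cells at a depth under 0.1 was 1.52% (control) and 30.4% (KO) with meningeal genes at 6% and 53.0% and 83.5% at 3%, both settings added after seeing the data, and 55.2% and 94.5% in the KO hemispheres. The fold of *Ndnf* was 16.4 in the control with a minimum of 50 transcripts, 28.6 and 37.1 with at least 5% *Reln*, 26.99 in the KO section against other pallial cells, and 44.1 and 45.8 without *Ccnd2* in the totals, an alternative added after seeing the data. The count of genes past 2-fold between the sections ran from 48 to 83 around 61, but its split moved from 47 higher and 14 lower to 39 and 44 with at least 5% *Reln* and to 27 and 26 without *Ccnd2*. In the other settings the surplus of higher genes stayed. The split was 57 and 20 in the Reln cells of the outer 50 µm and 62 and 9 with at least 5 *Reln* counts. It was 57 and 6 with at most 1 inhibitory transcript, 53 and 6 over genes with at least 20 counts, and 55 and 14 with the KO section thinned to the control depth. Depth limits the control section most, where 1 transcript is 0.728 per 10000 in the Reln cells.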
